A study of Homo sapiens with 6 samples.

Results

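The mRNAs of 10 genes of mitotic entry and chromosome separation were followed through the CELF1 RIP-Seq of human melanoma cells, from the established lines SK-Mel-103 and UACC-62. They were the mitotic kinase genes AURKA, AURKB, PLK1 and CDK1, the cyclin genes CCNA2, CCNB1 and CCNB2, the genes CKS1B and CKS2 of the small CDK-binding proteins, and TOP2A. The 10 genes were chosen by name for these roles, with earlier results of these data known. They come out of 19834 protein-coding genes with a coding transcript, of which 10040 had exonic bins listed in all 3 IP samples. A bin was counted for a gene when its centre lay in an exon of that gene and its listed strand was the reverse of the transcript, which gave 1210 exonic bins of 20 nt over the 10 genes.

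In RNA immunoprecipitation (RIP-Seq), an RNA-binding protein is pulled down from a lysate and the RNA that comes with it is sequenced beside the RNA of the lysate itself (the input). CELF1, also called CUGBP1, binds GU-rich elements (GREs), which are often found in the 3′ UTR, where it is known to promote mRNA decay and to affect translation, and it also acts in splicing. Mitotic genes are transcribed mainly late in the cell cycle and their mRNAs are turned over in each cycle. CDK1 with cyclin B drives entry into mitosis, cyclin A2 acts earlier, in S phase and G2, CKS proteins help cyclin-bound CDKs to recognise their substrates, Aurora A and PLK1 build the spindle poles, Aurora B corrects chromosome attachment, and topoisomerase II alpha untangles and separates sister chromatids.

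The series held 6 libraries of untreated cells grown in serum-supplemented medium, with an IP made with an anti-CUGBP1 antibody and an input for each of 3 samples. SK-Mel-103 had 1 sample and UACC-62 had 2, called replicates 1 and 3 in the labels and stated to be biological duplicates. Neither the labels nor the lists held an IP with a control antibody, so the input was the only background. Each IP came as a list of the 20-nt bins that passed the peak caller, with 816781 bins for SK-Mel-103 and 780750 and 862731 for UACC-62 replicates 1 and 3. The IP reads in them came to 10958459, 11333805 and 14436573 in that order. The input reads recovered for the same bins came to between 8453517 and 10161917 per sample, and 9.69, 15.9 and 29.2% of the listed bins held no input read in the same order. The lists held no other bins, so that a region without a listed bin has no value here, and each level below describes only the bins that passed. As a limited check of the cell lines, input reads in listed bins were counted for melanocyte lineage genes. Such reads were found for SOX10 (864 reads for SK-Mel-103, then 2115 and 1080 for UACC-62), MITF (18, 6034 and 5000), MLANA (18, 826 and 926), TYR (0, 1847 and 1170), DCT (0, 207 and 75) and S100B (0, 4696 and 3727). In the listed bins of SK-Mel-103, SOX10 was the only one of these lineage markers with more than 18 input reads. TYR, DCT and S100B had no listed bin there, so their reads in that input are not known. No bin of PMEL or TYRP1 was listed in any sample. The fibroblast genes COL1A1 and COL1A2 and the epithelial genes EPCAM and KRT5 had no listed bin, which does not show that the input lacked them. PTPRC of leukocytes had at most 3 input reads in listed bins.

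Levels are given as log2 IP over input, that is the log2 of the IP reads plus 1 over the input reads plus 1 in the listed bins of a region, each divided by the total of its column. A value of 0 means that the region took the same share of the IP reads as of the input reads. Values are in the order SK-Mel-103, UACC-62 replicate 1, UACC-62 replicate 3. Intervals are 95% intervals for counting error only, and reads without molecular identifiers are not independent molecules. With 3 samples, an exact sign-flip permutation test of a difference cannot give a two-sided p below 0.25, so none of the differences below could pass 0.05, and they are given as values and counts.

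The 10 3′ UTRs differed in their GU-rich stretches. A GRE was taken as a stretch of 11 nt within 2 mismatches of UGUGUGUGUGU or UGUUUGUUUGU, searched on the transcript strand of the 3′ UTR with all annotated transcripts joined, and with overlapping matches joined. No 3′ UTR of the 10 genes held a perfect match, and 8 held a match with mismatches. Among all 19307 annotated 3′ UTRs, whose median length was 1346 nt, 56.4% held at least 1 match. Of the 16 stretches, 8 are shown here, as examples from genes with IP above and below the input and chosen after their values were seen, on GRCh37 in the order 5′ to 3′ with each TGT in capitals.
TOP2A, chr17:38545545-38545557, minus strand: ttTGTcTGTGTtt
TOP2A, chr17:38544877-38544891, minus strand: tataTGTGTGTgact
AURKB, first 30 nt of a run at chr17:8108138-8108168, minus strand: ggtgcgTGTGTtTGTaTGTcTGTGTaTGTa
CDK1, chr10:62553818-62553828, plus strand: tatttcttTGT
CKS1B, chr1:154951588-154951598, plus strand: ttttTGTtttt
CKS1B, chr1:154951612-154951622, plus strand: TGTaTGTGTgg
CKS2, chr9:91931379-91931389, plus strand: TGTataTGTGT
CCNA2, chr4:122737696-122737710, minus strand: TGTcttttTGTttat

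The AURKB run packed 10 overlapping matches into a 3′ UTR of 138 nt, whereas only 6.61% of 3′ UTRs of similar length held any. AURKB also had 8.70 UGU per 100 nt of 3′ UTR, above 99.8% of 3′ UTRs of similar length, against a median of 2.20 over all 3′ UTRs. TOP2A had 3.32 UGU per 100 nt and CKS2 had 4.32. The lowest of the 10, CCNA2, had 2.35, so that all 10 lay above that median. CCNB1 and PLK1 held no match, which says only that these letters were not in their 3′ UTRs.

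TOP2A, the topoisomerase that resolves sister chromatids, had the highest 3′ UTR level of the 10 genes in each sample and the widest gap between 3′ UTR and CDS. In its 3′ UTR, the samples gave 7968 IP against 1559 input reads, 8500 against 2291, and 8055 against 2136. This gave a log2 IP over input of 1.98, 1.73 and 1.22, with a UACC-62 mean of 1.48 ± 0.37 (SD, n = 2). All 49 bins of the 3′ UTR were listed in all 3 samples, and 42 of them held more than 30 IP reads in each. In the TOP2A CDS, by contrast, the input outnumbered the IP, with 2675 and 4016, 2637 and 6569, and 4773 and 6499 reads. The CDS values of −0.96, −1.47 and −1.14 were all below 0, with a UACC-62 mean of −1.31 ± 0.23 (SD, n = 2), and only 7 of its 229 bins held more than 30 IP reads in each sample. The 3′ UTR minus CDS difference was 2.94 (2.83 to 3.04), 3.21 (3.11 to 3.30) and 2.36 (2.27 to 2.45) on the log2 scale. These are 7.67-, 9.24- and 5.13-fold, above the difference of 99.8, 99.7 and 98.97% of all 7313 genes with both regions in all samples.

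Along the TOP2A mRNA the level was uneven in the CDS, and it rose after the first 100 nt of the 3′ UTR. In windows of 100 nt, the CDS reached 0.85, 1.43 and 0.30 from −2699 to −2600 nt. The CDS stood at −0.14, 0.33 and −0.05 from −399 to −300 nt and at −1.03, −1.08 and −0.54 from −299 to −200 nt. From −199 to −100 nt it stood at −0.22, 0.10 and 0.15, and in its last 100 nt at 0.06, −0.04 and 0.09. The first 100 nt of the 3′ UTR stood close to this, at 0.34, −0.16 and 0.24. From 101 to 200 nt after the stop codon the level was 1.90, 1.14 and 0.74, and it stayed between 0.74 and 2.69 in every later window and sample. The bin with the most IP reads in its lowest sample lay 960 nt into the 994-nt 3′ UTR, at chr17:38544801-38544820, with 501, 537 and 525 IP reads against 61, 144 and 150 input reads. It was the bin with the most IP reads of the TOP2A 3′ UTR in each of the samples. The bins over the GRE stretch that lies nearer to the stop codon stood at 2.32, 2.84 and 1.97, and those over the stretch nearer to the end at 3.05, 2.89 and 1.87. The highest windows of the 3′ UTR were 2.69, 2.503 and 1.82, so the stretch nearer to the end lay above them in each sample, and the other did so in UACC-62 only. These stretches rest on 1 and 2 bins, against 4 or 5 for a window. The introns of TOP2A stayed below 0 in all samples, at −1.10, −1.42 and −0.96.

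**Figure D1:**
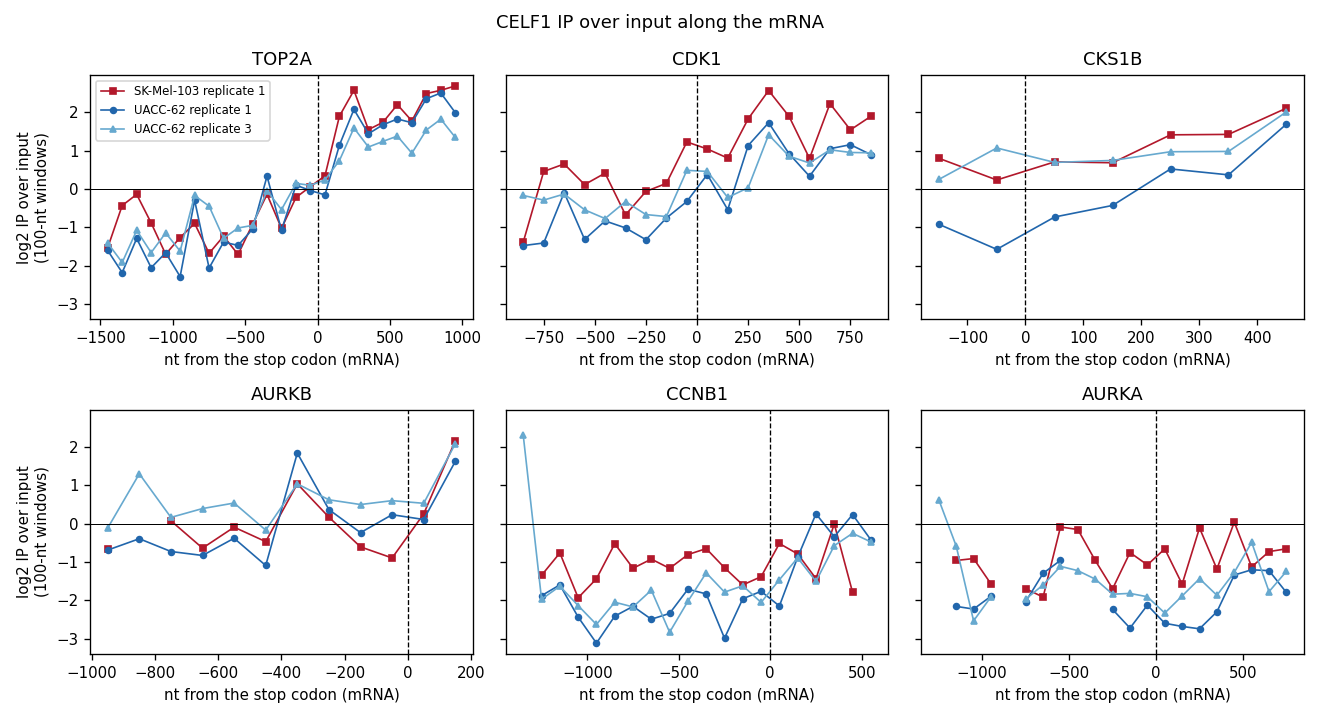
Log2 IP over input (y axis) in windows of 100 nt along the mRNA (x axis, nt from the stop codon, which is the dashed line) for TOP2A, CDK1, CKS1B, AURKB, CCNB1 and AURKA, with 1 line for each of the 3 samples and no value where a window has no listed bin. TOP2A rises from about 0 in the first 100 nt after the stop codon to between 0.74 and 2.69, while AURKA stays below 0 in nearly all windows of its 3′ UTR.

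CDK1, the kinase that starts mitosis, came next to TOP2A except in UACC-62 replicate 3, where CKS1B and AURKB lay above it. Its 3′ UTR held 3785 IP against 994 input reads, 1684 against 844, and 2021 against 755. The level was 1.55, 0.84 and 0.72, with a UACC-62 mean of 0.78 ± 0.08 (SD, n = 2), so that SK-Mel-103 lay above both UACC-62 samples. The CDS of CDK1 gave 0.13, −0.93 and −0.31, above 0 only in SK-Mel-103. The 3′ UTR minus CDS difference was 1.42 (1.28 to 1.56), 1.77 (1.59 to 1.95) and 1.03 (0.86 to 1.19), above that of 91.8, 92.9 and 84.7% of all genes. CDK1 and TOP2A were the only members with CDS bins of more than 30 IP reads in all samples, 6 and 7 of them.

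The highest window of the CDK1 3′ UTR lay 301 to 400 nt after the stop codon, at 2.57, 1.73 and 1.41. The bin with the most IP reads was farther on, 818 nt into the 877-nt 3′ UTR, at chr10:62554541-62554560, with 337, 169 and 221 IP reads against 69, 84 and 70 input reads. The bins over the CDK1 stretch printed above stood at 1.07, 0.22 and 0.59, below the value of the whole 3′ UTR in each sample. The other CDK1 stretch, at chr10:62553921-62553931, had 1 listed bin at 0.04 and −0.42 and none in UACC-62 replicate 3.

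AURKB, the kinase of the chromosomal passenger complex, had few reads in a short 3′ UTR, with all 7 bins listed in each sample. They held 192 IP and 93 input reads, 233 and 143, and 319 and 98, which gave 0.66, 0.54 and 0.99. The UACC-62 mean was 0.77 ± 0.32 (SD, n = 2), and the SK-Mel-103 value lay between both replicates. The CDS stood at −0.37, −0.25 and 0.42, and the difference was 1.04 (0.62 to 1.45), 0.80 (0.44 to 1.15) and 0.58 (0.19 to 0.96), with no interval reaching 0. Within the 3′ UTR the level was not highest over the GU-rich run, where the bins gave 0.92, 0.32 and 0.40. It was highest in the last bins, 101 nt or more after the stop codon, at 2.17, 1.63 and 2.09.

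CKS1B, whose protein binds CDKs and the SCF ubiquitin ligase factor SKP2, had the single bin with the most IP reads of any member in SK-Mel-103. That bin, chr1:154951581-154951600, lay 338 nt into a 474-nt 3′ UTR and held 627, 165 and 495 IP reads against 244, 143 and 176 input reads. The whole 3′ UTR gave 1.15, 0.06 and 0.91, all above 0, though the value of UACC-62 replicate 1 was near 0. The UACC-62 replicates of CKS1B differed more in both regions than those of the other members with both values, with 816 IP reads in replicate 1 and 2417 in replicate 3 against 703 and 795 input reads. The CDS separated further, at 0.39, −1.40 and 1.12, with a UACC-62 mean of −0.14 ± 1.79 (SD, n = 2). The difference of CKS1B was therefore 0.76 (0.47 to 1.06), 1.46 (0.999 to 1.92) and −0.22 (−0.52 to 0.09), and it had no shared direction. Over the CKS1B stretches the level differed along the 3′ UTR, with 2.17, 0.40 and 1.22 at the last of them, 0.98, 0.05 and 0.79 at the middle one, and −0.12, −1.05 and 0.30 at the first, chr1:154951380-154951390, which is not printed. The annotation also holds 7 pseudogenes named after CKS1B, and since the alignment allowed multiple hits, reads of the gene and of these copies could have been exchanged. AURKA has 2 such pseudogenes, and AURKB and CCNB2 have 1 each.

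For the 4 genes with IP above input in the 3′ UTR, the 3′ UTR bin with the most IP reads in its lowest sample was printed to show what it holds, with each TGT in capitals.
TOP2A bin: ttccaacaatttTGTacttt
CDK1 bin: atctaaaaaggctctaaTGT
CKS1B bin: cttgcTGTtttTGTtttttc
AURKB bin: ttaataaaggctgaagcttt

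Of these, the CKS1B bin alone overlapped one of the GRE matches, and the AURKB bin, at chr17:8108061-8108080 with 58, 86 and 121 IP reads against 7, 23 and 16 input reads, held no TGT. The TOP2A, CDK1 and AURKB bins all lay less than 100 nt from the ends of their 3′ UTRs. The labels call the IP libraries poly A+ RNA and the input libraries only input RNA, while the protocol given for all of them removes ribosomal RNA. Whether this moved the values towards the 3′ end was not tested.

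The cyclins and AURKA had no such enrichment, while PLK1 had too few listed 3′ UTR bins to tell. CCNB1, the cyclin partner of CDK1 at mitotic entry, had 3′ UTR values of −1.06, −1.40 and −1.58 and CDS values of −1.15, −2.32 and −2.08. Its 3′ UTR was thus below the input in every sample and yet above its CDS, by 0.09 (−0.20 to 0.37), 0.92 (0.66 to 1.18) and 0.50 (0.27 to 0.72). The only common CCNB1 bin of more than 30 IP reads, chr5:68473421-68473440, held 39, 51 and 55 IP reads against 66, 129 and 174 input reads. It is 3′ UTR in some CCNB1 transcripts and CDS in others, as are 8 of the bins of that gene, and it counts as CDS when CDS is given precedence.

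CCNB2, the other B-type cyclin, was thinly covered, with at most 6 of 69 3′ UTR bins listed in a sample and levels of −1.42, −1.36 and −1.99. These 69 bins join all annotated transcripts, over 1379 nt, while the transcript with the longest CDS has a 3′ UTR of 168 nt. In the first 100 nt of that 3′ UTR, 3, 2 and 1 of 5 bins were listed, and 1, 1 and 2 of 3 after them. No bin over a CCNB2 GRE stretch was listed. CCNA2 stood at −1.04, −1.93 and −1.48 in the 3′ UTR and −1.46, −1.71 and −1.78 in the CDS. AURKA, the spindle pole kinase, stood at −1.01, −2.10 and −1.61 in the 3′ UTR and −1.26, −2.03 and −1.79 in the CDS. In none of these 3 genes did the difference keep its direction over the samples, and it ran from −0.55 to 0.42.

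CKS2 showed that abundant reads could lie on either side of the input. It held 631 IP reads in the 3′ UTR in SK-Mel-103, against 912 in the input, and its levels of −0.91, −1.91 and −1.80 were far below those of its paralogue CKS1B in every sample. The bins over its GRE stretch printed above gave −2.03, −3.31 and −1.87, and its other stretch, at chr9:91931600-91931610, had no listed bin. The bin over the CCNA2 stretch printed above was likewise below the input, at −0.98, −2.01 and −1.05. The bins over the other CCNA2 stretch, at chr4:122738254-122738264, gave 0.69, 0.58 and −0.70, on at most 22 IP reads in a sample.

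PLK1 could not be compared between regions in UACC-62 replicate 1, and in the other samples only on 1 3′ UTR bin each. Its 3′ UTR had 1 listed bin of 15 in SK-Mel-103, with 8 IP and 4 input reads. UACC-62 replicate 1 had none there, and replicate 3 had 1 bin, with 4 IP and 4 input reads. Its CDS, with 15 to 23 of 91 bins listed, gave −0.30, −0.70 and −1.06.

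**Figure D2:**
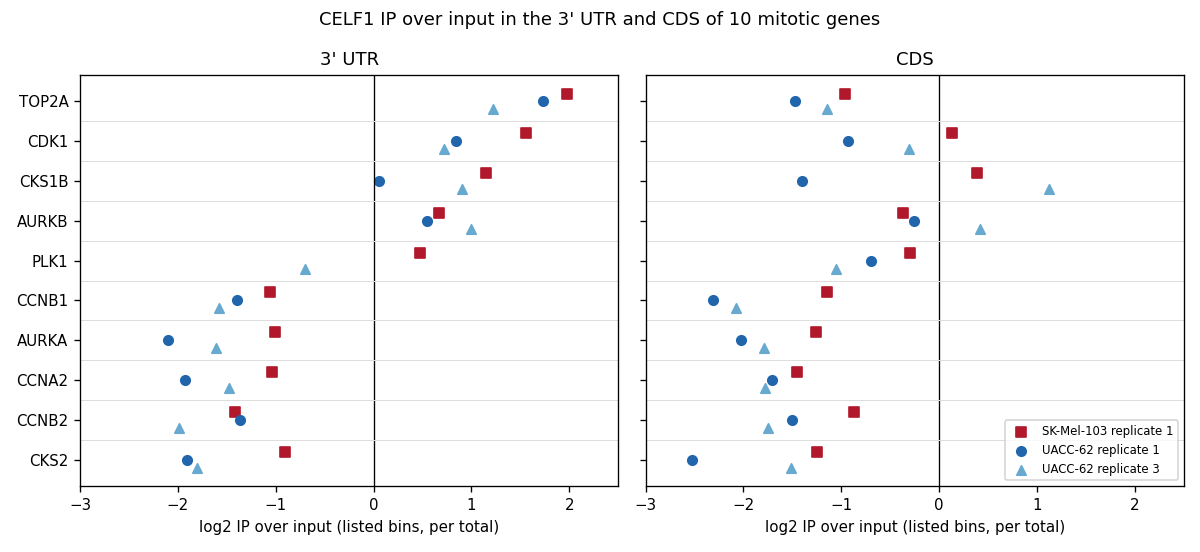
Log2 IP over input (x axes) in the 3′ UTR (left) and the CDS (right) of the 10 genes (y axis), with 1 point for each of the 3 samples. TOP2A, CDK1, CKS1B and AURKB lie above 0 in all 3 samples in the 3′ UTR, from 0.06 to 1.98, CCNB1, AURKA, CCNA2, CCNB2 and CKS2 lie between −2.10 and −0.91, and the 3′ UTR points of PLK1 rest on 1 bin each.

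By the sign of the 3′ UTR level in all samples, the 10 genes were divided into an upper group of 4, a lower group of 5, and PLK1. Groups set in this way cannot overlap, so the split is a description only. TOP2A was first in each sample, while CDK1, CKS1B and AURKB changed places between samples and were not ordered beyond that spread. The order within the lower group changed from sample to sample. IP above input in the 3′ UTR in all samples was found for 4 of the 9 members with a value, against 33.3% of all genes. A CDS above the input in all samples was found for 0 of 10, against 17.3% of all genes. Without UACC-62 replicate 1, CKS1B is above 0 in the CDS, and all genes then stood at 25.6%. The members' median 3′ UTR level was −0.22, −1.36 and −1.09, against 0.09, −0.26 and 0.04 over all genes.

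The 3′ UTR was above the CDS in all 3 samples in 4 of 9 members, AURKB, CDK1, CCNB1 and TOP2A, and the background was 44.5% of all genes. The share among the members was near that background. Without UACC-62 replicate 1 the count was 7 of 10, with AURKA, CCNA2 and PLK1 added, and all genes then stood at 48.7%. The counting intervals of AURKA and PLK1 included 0 in both remaining samples, and the 3′ UTR of PLK1 rested on 1 bin in each. The count was 6 of 9 without UACC-62 replicate 3, with CKS1B and CKS2 added, and all genes then stood at 51.2%. Over all genes the median difference was 0.30, 0.28 and 0.23.

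**Figure D3:**
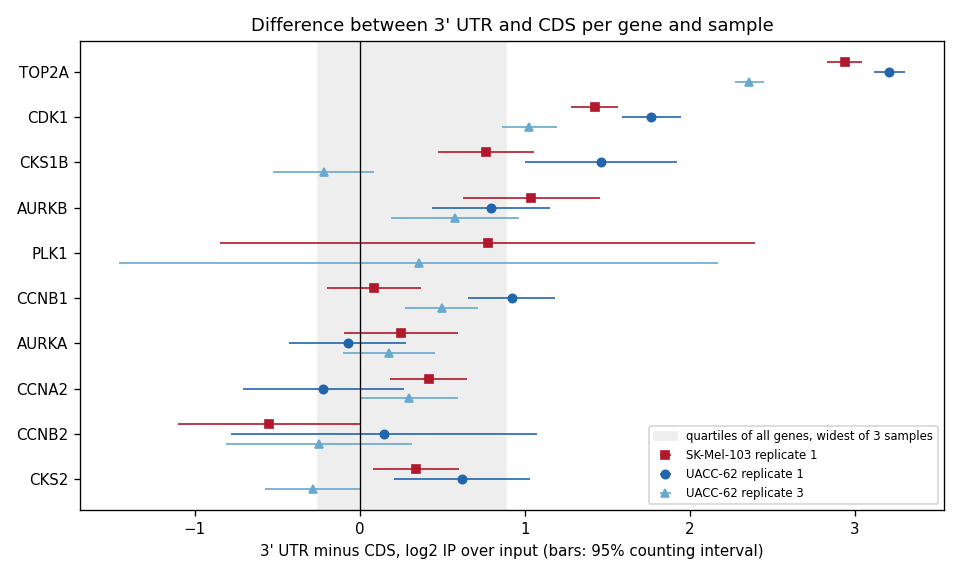
Difference between 3′ UTR and CDS in log2 IP over input (x axis) for each of the 10 genes (y axis) and 3 samples, with bars for the 95% counting interval and a grey band for the widest quartile range over all genes. TOP2A lies between 2.36 and 3.21, beyond the band in every sample, and CDK1 between 1.03 and 1.77.

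A bin with more than 30 IP reads at the same place in all 3 samples was found in the 3′ UTR of 6 of 10 members, AURKB, CDK1, CCNB1, CKS1B, CKS2 and TOP2A. Among all genes with an annotated 3′ UTR the share was 8.52%, and among those with any 3′ UTR bin listed in all samples it was 22.5%, against 6 of 9 members. The count rests on IP reads and not on the ratio, and CKS2 and CCNB1 passed it with levels below the input. Since the members were chosen with earlier results of these data known, the count beside these shares is a description only. In the CDS such a bin was found in 2 of 10 members, CDK1 and TOP2A, against 2.8% of all genes. Without UACC-62 replicate 1, CKS1B and CKS2 joined them, and all genes then stood at 4.15%. With a minimum of more than 100 IP reads, CDK1, CKS1B and TOP2A still had a common 3′ UTR bin, against 2.62% of all genes.

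SK-Mel-103 had the higher 3′ UTR level in 7 of the 9 members with a value, all but AURKB and CCNB2, where its value lay between the UACC-62 replicates. The same held for 53.8% of all genes, and with 1 sample of SK-Mel-103 the difference between the cell lines was not tested. In UACC-62, replicate 1 was the lower of the pair for CKS1B, AURKB, CCNA2, AURKA and CKS2 and the higher for TOP2A, CDK1, CCNB1 and CCNB2. In bulk RNA, the number of cells in mitosis and the mRNA per cell cannot be told apart, although both enter the input as well as the IP.

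Other mitotic genes were set beside these 10 as a list of 55 genes of G2/M control, the spindle, its checkpoint, anaphase and chromosome condensation. Of the 52 with both regions in all samples, 33 had the 3′ UTR above the CDS in each, against 44.5% of all genes. A 3′ UTR above the input in each was found in 17 of 53, against 33.3% of all genes. The CDS was above the input in all samples in 7 of 53, including UBE2C, INCENP and WEE1, against 17.3%. A common 3′ UTR bin of more than 30 IP reads was found in 14 of 55, against 8.52%. The count with a common CDS bin was 6 of 55, against 2.8%. Their median difference was 0.61, 0.45 and 0.37, against 0.59, 0.80 and 0.33 in the members.

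The highest 3′ UTR levels of that list, taken by the lowest of the 3 samples, were those of UBE2C, NDC80 and INCENP. UBE2C, the ubiquitin-conjugating enzyme of the anaphase-promoting complex, gave 2.43, 2.99 and 3.18. NDC80, of the outer kinetochore, gave 2.51, 3.76 and 2.43, with a difference from its CDS of 3.32, 4.75 and 3.02, larger than that of TOP2A in every sample, though it had no common bin of more than 30 IP reads. INCENP, which holds AURKB in the chromosomal passenger complex, gave 2.31, 3.35 and 3.41. The lowest were CDC20, the activator of the anaphase-promoting complex, at −1.47, −3.38 and −2.32, UBE2S at −1.32, −2.26 and −1.87, and AURKAIP1 at −0.64, −2.23 and −1.98. The 4 upper members thus lay inside the range of the wider list. TOP2A was exceeded there in all 3 samples by each of UBE2C, NDC80, INCENP and CDC25B, the last at 2.06, 2.40 and 2.80.

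**Figure D4:**
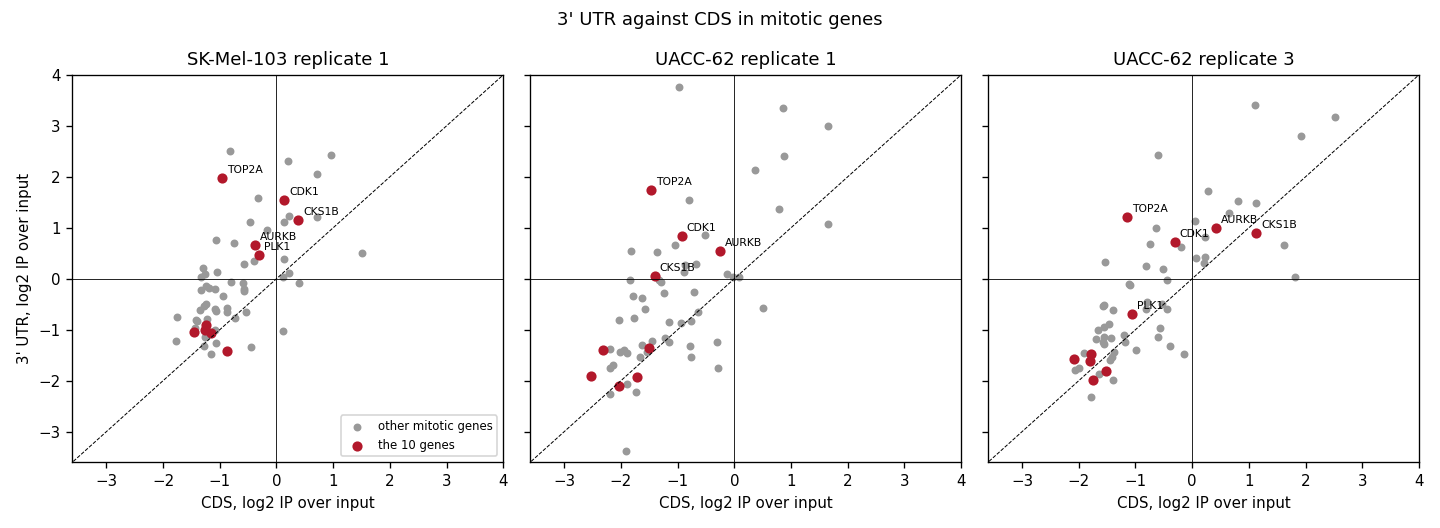
Log2 IP over input in the 3′ UTR (y axis) against the CDS (x axis) in each of the 3 samples, with the 55 other mitotic genes in grey and the 10 genes in red, of which the 5 with the highest 3′ UTR values are named, genes without a value left out, and a dashed line at equal values. TOP2A lies far above the line in each panel, and the 3′ UTR of UBE2C, NDC80 and INCENP, among the grey points, reaches 2.31 to 3.76.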

How the data were processed

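CELF1 was immunoprecipitated from formaldehyde-fixed, sonicated SK-Mel-103 and UACC-62 cells, and single-end reads of IP and input were aligned by the authors to GRCh37 with TopHat. The submitters' processing notes name TopHat2 2.0.4, Bowtie 0.12.7 and SAMtools 0.1.16. The authors' methods name Piranha for peak calling in 20-nt bins and do not say what its covariate held. The deposited lists give, for each bin, an IP read count, a p-value from the authors' caller (below 0.05 in all listed bins, and not used here beyond a stricter limit of 0.01), and a covariate, a ratio the authors scaled, whose values are whole multiples of a smallest step or 0.01. It was read here as the input, with the multiples as input reads and 0.01 as none. Multiples recovered from the lists lay within 0.019 of a whole number. The lowest listed IP count was 4, so the study's filter of more than 30 reads is not built into the lists and was applied here where stated.

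Bins were placed on GENCODE version 44 lifted to GRCh37 by their centre, on the strand opposite to the listed one, with 3′ UTR taken before CDS (stop codon included) and CDS before 5′ UTR. Reads were summed per region with a pseudocount of 1 (Python 3, numpy, pandas, scipy). The scripts were tested on simulated data. Every one of the 10 genes is named. Of the 55 other mitotic genes, the 3 highest and 3 lowest by the lowest of the 3 samples are named by rule. CDC25B and WEE1 are mentioned for single results. The members and lists were chosen with earlier results of these data known. Counting intervals are Woolf intervals at 95%. Alternatives were other read minimums, p limits, pseudocounts, scalings, region orders and strands, and leaving out each sample.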

Additional observations from a re-analysis of the deposited data

Results flagged for a closer look

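The CDS of CDK1 was above the input in SK-Mel-103, at a log2 IP over input of 0.13, and below it in both UACC-62 samples, at −0.93 and −0.31. It stood out because the cell lines lay on opposite sides of 0, and with 1 sample of SK-Mel-103 the difference was not tested.

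Bins in the introns of CDK1, outside the comparison of exons, were above the input in all 3 samples, with 0.18 as the lowest value. In SK-Mel-103 there were 59 such bins with 357 IP and 242 input reads, while UACC-62 replicate 1 had 10 bins with 44 and 32 reads and UACC-62 replicate 3 had 7 bins with 32 and 2 reads. No intron bin of CDK1 held more than 30 IP reads.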

How the results depend on the processing

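No paired analysis was possible because each input is given only as a column of its own IP list, so every ratio is already IP over its own input, and SK-Mel-103 has a single replicate. Each count of members was recomputed under up to 14 alternatives. The count with the 3′ UTR above the CDS, 4 as reported, was 2 with only bins of more than 30 IP reads, where 2 members (CDK1 and TOP2A) had a value, and ran from 4 to 7 when each sample was left out. All genes stood at 63.4% under that minimum and at 48.7 to 51.2% with a sample left out. The count with a CDS above the input, 0 as reported, was 0 to 1 when each sample was left out, against 20.2 to 25.6% of all genes. The count with a common 3′ UTR bin was 9 with no minimum, against 37.9% of all genes, and 3 with more than 100 IP reads, against 2.62%. It was 0 when bins were matched to genes on the strand as written, against 0.42%. The count with a common CDS bin was 10 with no minimum, against 29.1% of all genes, and 0 with more than 100 IP reads, against 0.454%. It was 0 on the strand as written, against 0.0655%, and 2 to 4 when each sample was left out, against 2.95 to 4.15%. With CDS before 3′ UTR it was 3, against 3.03% of all genes, and the common 3′ UTR count was 5, against 8.45%. The reason was that the bin of CCNB1 changed region. The count with a higher level in SK-Mel-103, added after seeing the data, ran from 5 to 9, against 38.6 to 69.2% of all genes. No alternative turned the direction of a difference shared by all samples. Of 215 single-gene values, 206 stayed within the replicate SD or counting interval and 9 moved. Many of the 206 could not have moved, so the count does not measure robustness. Scalings by totals or by the median gene cancel in a difference, and no member had a bin shared with another gene. Leaving out a sample of 1 line keeps the value of the other line. With 1 UACC-62 replicate left out, the remaining value always lies within the SD of both. CKS1B thus counts as unmoved, though it went from 0.62 to −0.22 or 1.46. Among the 9, CCNA2 in SK-Mel-103 went from 0.42 to −0.45 with only bins of more than 30 IP reads. TOP2A in SK-Mel-103 went to 2.65 under that setting, and CCNB1 in SK-Mel-103 went from 0.09 to 0.52 with CDS first. A further 28 single-gene values were missing for lack of listed bins. The 4 counts that rest on levels could not be given on the strand as written. Leaving reads undivided by totals shifted all levels by 0.37, 0.16 and 0.70, and centring on the median gene by −0.03, 0.29 and −0.03. Depth limits PLK1 and CCNB2 most, as their 3′ UTRs rest on the fewest reads.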
